A study of Homo sapiens with 4 samples.

Results

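SLC35F1 to SLC35F6 are the 6 human genes of the SLC35F group of solute carriers, and all 6 were found by symbol and Ensembl identifier among 60483 genes counted in each library. Polyadenylated RNA was sequenced from the established human embryonic stem cell line H9 (WA09) in 2 libraries labelled SLC35F2 KO (knocked out for SLC35F2; KO 1 and KO 2) and 2 libraries labelled control. The labels give no treatment, no method of disruption and no clone. They also leave it unsaid whether replicate libraries are separate cultures, and the p-values below therefore rest on a spread that could be purely technical. The comparison asks how RNA of the targeted gene and of its relatives differed between libraries labelled SLC35F2 KO and control.

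SLC35 proteins are membrane carriers, and the best known of them move nucleotide sugars from the cytosol into the Golgi and the endoplasmic reticulum. The F group is less well defined. SLC35F2 is known as the carrier through which the drug YM155 enters cells and has been described as a carrier of queuine and queuosine, a base and nucleoside that cells salvage to modify certain transfer RNAs. SLC35F3 has been described as a carrier of thiamine, SLC35F1 is known for its expression in brain, and SLC35F6 has been described as a partner of the mitochondrial carrier ANT2. Where related genes overlap in function, loss of one is sometimes followed by more RNA of another.

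The members share little sequence at the length of a read. Over the longest annotated coding sequences, SLC35F1 and SLC35F2 were the most alike pair, with 67.2% identity over 1107 aligned bases, followed by SLC35F3 and SLC35F4 with 63.7% over 1445 bases. The other 13 pairs had 57.2% to 62.2%. The longest run of identical bases in any of the 15 alignments was 17. No word of 50 bases in any annotated transcript of a member occurred in a transcript of another member. Such words occurred in transcripts of other genes for 0% of the words of SLC35F3, 1.81% of those of SLC35F2 and 4.399% of those of SLC35F6, with the other 3 members in between. The 90 bases in which the coding sequences of SLC35F1 and SLC35F2 were most alike without a gap are shown as an example from this closest pair. They are bases 380 to 469 of the coding sequence of SLC35F1 and 317 to 406 of that of SLC35F2, both written 5′ to 3′ from GENCODE 29, with the 19 positions that differ in capitals and the 71 identical ones in lower case.
SLC35F1: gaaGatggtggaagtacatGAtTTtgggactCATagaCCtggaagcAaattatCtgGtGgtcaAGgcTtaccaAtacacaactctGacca
SLC35F2: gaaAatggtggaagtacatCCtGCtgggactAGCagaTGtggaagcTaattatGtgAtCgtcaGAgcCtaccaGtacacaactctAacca

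The promoters of SLC35F2 and SLC35F5 are shown because these were the 2 members whose KO and control libraries did not overlap, SLC35F2 lower and SLC35F5 higher in KO. Over all genes tested, 16.3% were likewise lower and 15.8% higher. The promoters come from the RefSeq table (GRCh38.p14), which held 3 of the 6 members by symbol. They run from 250 bases before to 50 bases after the start, 5′ to 3′ on the gene's strand. The first is chr11:107858738-107859037 and the second chr2:113756593-113756892, both on the minus strand. Capitals mark the GC box GGGCGG, the CCAAT box CCAAT, the TATA box TATAAA and the cAMP response element TGACGTCA, searched on both strands, with no overlap between matches here. The last of these motifs was added after the sequences had been read.
SLC35F2: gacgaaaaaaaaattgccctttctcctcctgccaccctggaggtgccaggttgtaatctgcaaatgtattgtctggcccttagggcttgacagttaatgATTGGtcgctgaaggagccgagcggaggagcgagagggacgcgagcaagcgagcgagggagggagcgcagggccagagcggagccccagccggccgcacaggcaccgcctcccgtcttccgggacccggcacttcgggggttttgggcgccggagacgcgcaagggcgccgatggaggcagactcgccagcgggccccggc
SLC35F5: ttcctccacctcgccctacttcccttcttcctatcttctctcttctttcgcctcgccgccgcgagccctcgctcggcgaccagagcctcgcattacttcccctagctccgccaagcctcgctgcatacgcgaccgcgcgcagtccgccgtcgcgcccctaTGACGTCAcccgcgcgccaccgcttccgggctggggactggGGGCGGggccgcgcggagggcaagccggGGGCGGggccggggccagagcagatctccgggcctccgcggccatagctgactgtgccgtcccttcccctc
SLC35F2 held 1 CCAAT box, on the opposite strand, and SLC35F5 held 2 GC boxes and 1 cAMP response element. Of the 35116 promoters of this length, 34.6% held a CCAAT box, 45.0% a GC box, 11.5% a TATA box and 1.85% a cAMP response element. CpG dinucleotides numbered 27 in the SLC35F2 promoter and 38 in that of SLC35F5, against a median of 14 over all promoters. A match is a description of the letters and not a bound site.

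The libraries held 27824693 reads assigned to genes in KO 1, 36943597 in KO 2, 37978705 in control 1 and 32423108 in control 2. All 8 markers of pluripotent stem cells had enough reads to be tested, and POU5F1, which encodes the stem cell factor OCT4, had 401 and 227 CPM (CPM is the read count of a gene scaled to library size) in KO libraries and 282 and 306 CPM in controls. Of 9 neural markers, SOX1, PAX6 and NEUROG2 were at or under 1.67 CPM in all libraries. The 9 summed to 587 and 975.4 CPM in KO and to 527 and 831 CPM in control, most of it from NES. Of 7 fibroblast or feeder markers, DCN and LUM were at or under 0.106 CPM, while COL1A1, which encodes a chain of type I collagen, had 46.8 and 552 CPM in KO and 128 and 300.4 CPM in control. The 7 summed to 571 and 1114 CPM in KO and to 544 and 875 CPM in control. A large part of these sums was THY1, with 429 and 337 CPM in KO and 296 and 376 CPM in control. COL1A2 had 93.6 and 221 CPM in KO and 115 and 198 CPM in control. The list did not move together: THY1 was lower in KO 2 than in KO 1, and POSTN was lower in replicate 2 of both groups. In both marker sums replicate 2 was the higher library of its group. This came mostly from NES in the neural sum, and from COL1A1 and COL1A2 in the other. NES had 526 and 919 CPM in KO and 462 and 777 CPM in control. The other neural markers did not move together: TUBB3 was lower and MAP2 higher in replicate 2 of both groups. The part of these markers in the results below was not tested. None of these 24 markers passed edgeR's quasi-likelihood test at an adjusted p of 0.05, where 0.0263% of all genes tested passed. Before adjustment 2 of them, NANOG and DCX, were under 0.05, where 4.06% of all genes tested were, and both were lower in KO. NANOG had 46.2 and 19.1 CPM in KO and 61.2 and 64.7 CPM in control (log2 fold change -0.95). Of the 8 stem cell markers, 1 had both KO libraries below both controls, 1 had them above, and 6 overlapped. Over all genes tested 16.3% were below and 15.8% above.

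SLC35F2 RNA was lower in KO but not lost: each KO library lay below each control library. It lies on chromosome 11 (107790991 to 107928293, minus strand, GRCh38; ENSG00000110660), and GENCODE 29 lists 6 transcripts for it with 6 different starts, 3 of them protein coding and 3 annotated as targets of nonsense-mediated decay. KO 1 held 332 reads and KO 2 330, against 1550 in control 1 and 964 in control 2. As levels these were 12.1 and 9.65 CPM in KO and 41.1 and 27.1 CPM in control. The libraries of each group differed by more than counting error. The 95% Poisson intervals ran from 10.81 to 13.4 CPM in KO 1 and from 8.64 to 10.75 CPM in KO 2, against 39.1 to 43.2 CPM in control 1 and 25.4 to 28.9 CPM in control 2.

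The fitted level of SLC35F2 in KO was 31.8% of control (95% confidence interval 18.2% to 55.5%, n = 2 per group, edgeR's quasi-likelihood model), a log2 fold change of -1.65 ± 0.35 (SE). Its Benjamini-Hochberg adjusted p over 19027 genes was 0.58 in edgeR, with 0.00124 before adjustment, and 423 genes (2.22%) had a log2 fold change at least as far below zero. DESeq2 called it (adjusted p = 0.00843). It was also called without KO 1 (log2 fold change -1.81, edgeR adjusted p = 0.00104), in a fit that called 1096 genes, and without KO 2 (log2 fold change -1.50, edgeR adjusted p = 0.0243), in a fit that called 188. Those fits have a single KO library, whose variation is taken to equal that of the controls. Counts are per gene, so they do not show which exons or which annotated transcripts the remaining reads came from.

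Among the 5 relatives no rise passed the test. Of the 6 members, 5 passed the filter on low counts, and edgeR's quasi-likelihood test called 0 of them, where 0.0263% of all genes tested were called (0.021% lower and 0.00526% higher in KO). At an unadjusted p under 0.05 in edgeR there was 1 member, SLC35F2, beside 4.06% of all genes, and DESeq2 called 1, also SLC35F2. Both KO libraries were above both controls for 1 of the 4 tested relatives, SLC35F5, and below them for none, while over all genes tested 15.8% were above and 16.3% below. The median log2 fold change of the 4 relatives was -0.07, beside 0.029 over all genes.

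**Figure D1:**
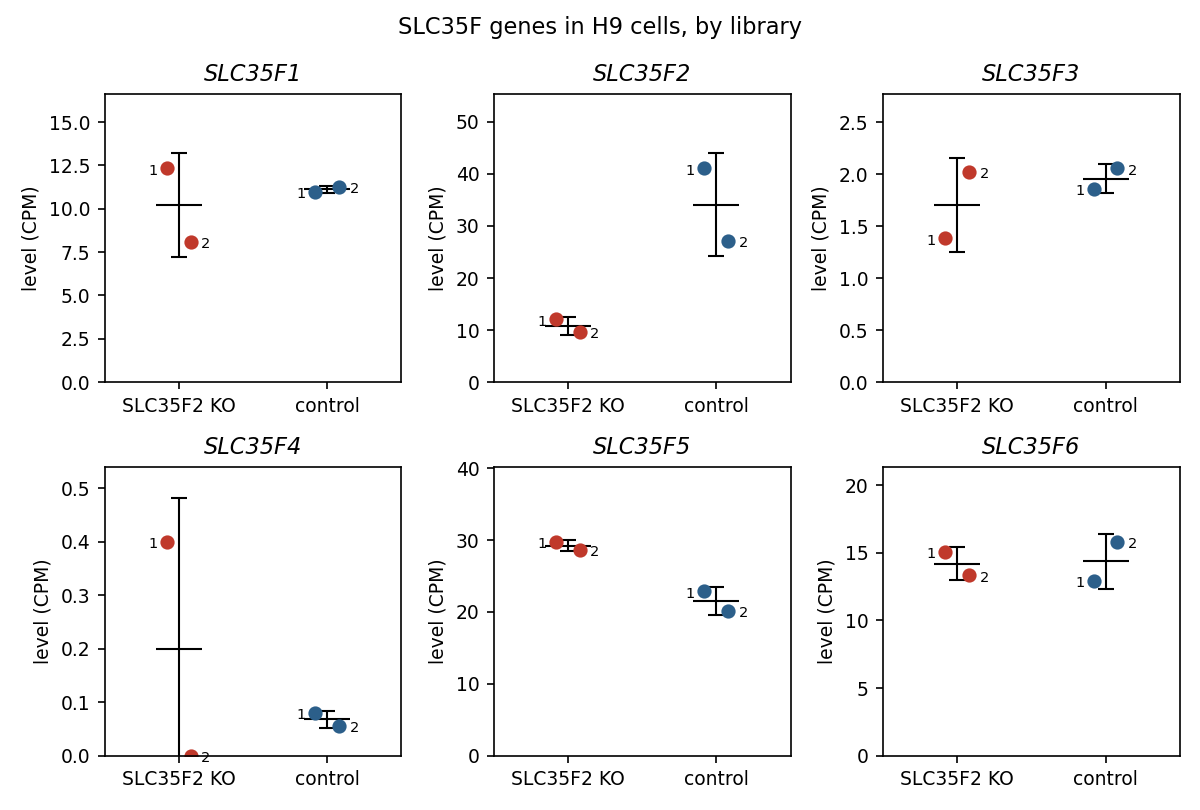
Level in CPM (vertical axes from 0, each with its own scale) of the 6 SLC35F genes in SLC35F2 KO (red) and control (blue) libraries. Points are libraries with their replicate numbers, and bars give the mean ± SD (n = 2 per group), drawn down to 0 where the SD is larger than the mean. The KO libraries lie below both controls for SLC35F2 and above both for SLC35F5, and the groups overlap for the other 4 genes.

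SLC35F1, the closest relative of SLC35F2 in sequence, had similar levels in both groups. It lies on chromosome 6 (117907526 to 118317676, plus strand; ENSG00000196376). Its levels were 12.3 and 8.07 CPM in KO, from 339 and 276 reads, against 10.97 and 11.3 CPM in control, from 414 and 400 reads. KO 1 was the highest and KO 2 the lowest of the 4 libraries, so the groups overlapped. RPL29P4, a ribosomal pseudogene within SLC35F1 that shares no exonic base with it, had 118 and 185 reads in KO and 121 and 119 reads in control. As levels these were 4.29 and 5.41 CPM in KO and 3.21 and 3.35 CPM in control (log2 fold change 0.57, edgeR adjusted p = 0.997). The log2 fold change of SLC35F1 was -0.13 ± 0.39 (SE, n = 2 per group, edgeR adjusted p = 0.997). Its 95% interval allowed levels in KO from 0.494 to 1.69 times those of control. The sign was set by KO 2, without which the log2 fold change was 0.15. KO 2 had the higher neural and fibroblast marker sums of the KO libraries, and control 2 those of the controls. These differences came mostly from NES, COL1A1 and COL1A2, and the other markers of the lists did not move together. Whether these sums go with the level of SLC35F1 was not tested.

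SLC35F5 was the relative with the largest fitted difference, and it was higher in both KO libraries. It lies on chromosome 2 (113705011 to 113756823, minus strand; ENSG00000115084), and its substrate is not established. MIR4782, within SLC35F5, had at most 3 reads in any library. Its levels were 29.7 and 28.7 CPM in KO, from 818 and 980 reads, against 22.8 and 20.2 CPM in control, from 862 and 716 reads. The groups did not overlap, and the KO libraries lay closer together than the controls. The group means were 29.2 ± 0.768 CPM in KO and 21.5 ± 1.90 CPM in control (SD, n = 2 each).

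The difference in SLC35F5 did not pass the test. Its log2 fold change was 0.44 ± 0.30 (SE, n = 2 per group; edgeR adjusted p = 0.997, unadjusted p = 0.174), and the 95% interval allowed 0.849 to 2.17 times the control level. Over 15 other fits the log2 fold change stayed between 0.32 and 0.54, with edgeR, DESeq2 or limma adjusted p from 0.592 up. Of all genes tested, 13.4% had a log2 fold change at least as high.

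SLC35F6 was at the same level in the 2 groups within the spread between libraries. It lies on chromosome 2 (26764284 to 26781231, plus strand; ENSG00000213699). Its levels were 15.1 and 13.3 CPM in KO against 12.9 and 15.8 CPM in control, with both KO libraries between the controls. The log2 fold change was -0.02 ± 0.35 (SE, n = 2 per group; edgeR adjusted p = 0.997; 95% interval -0.81 to 0.77), and it was 0.14 without control 2 and 0.07 without KO 2. SLC35F6 shares 138 exonic bases on the same strand with CENPA, which encodes the centromeric histone H3 variant, so reads there cannot be given to either gene. CENPA had 13.7 and 26.5 CPM in KO against 12.6 and 13.4 CPM in control, with KO 2 far above the other libraries (log2 fold change 0.63, edgeR adjusted p = 0.997).

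SLC35F3 was low and also overlapped between the groups. It lies on chromosome 1 (233904933 to 234324516, plus strand; ENSG00000183780). It had 38 and 69 reads in KO and 70 and 73 reads in control, which are 1.38 and 2.02 CPM against 1.86 and 2.05 CPM. KO 1 was the lowest library, while KO 2 lay between the controls. The log2 fold change was -0.19 ± 0.54 (SE, n = 2 per group; edgeR adjusted p = 0.997; 95% interval -1.41 to 1.04), and it was 0.06 without KO 1. The annotated antisense gene ENSG00000233332 within SLC35F3 had 1 and 16 reads in KO and 11 and 22 in control, and shares no exonic base with it.

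SLC35F4 was nearly silent and fell under the filter on low counts, so it has no test. It lies on chromosome 14 (57563922 to 57982194, minus strand; ENSG00000151812). It had 11 reads in KO 1 and 0 in KO 2, against 3 in control 1 and 2 in control 2. As a level, KO 1 stood at 0.400 CPM (95% Poisson interval 0.200 to 0.716), and 0 reads in KO 2 allow up to 0.0877 CPM if 3 reads are taken as the limit, or 0.108 CPM as the upper end of the 95% Poisson interval. Control 1 and control 2 had intervals of 0.0164 to 0.232 CPM and 0.00682 to 0.203 CPM, which overlap that of KO 1. The antisense gene ENSG00000259039, which shares 123 exonic bases with SLC35F4, had 1 read in each KO library and 0 in each control. These intervals cover counting error only.

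Set per length, the order of the family differed between the groups. RPKM values (CPM per kilobase of merged GENCODE 29 exons) ran in the order SLC35F5, SLC35F6, SLC35F2 from the highest down in both KO libraries, and SLC35F2, SLC35F6, SLC35F5 in both controls. SLC35F1, SLC35F3 and SLC35F4 followed in this order in all 4 libraries. In KO SLC35F5 averaged 3.92 ± 0.103 RPKM, SLC35F6 3.64 ± 0.318 RPKM and SLC35F2 2.92 ± 0.461 RPKM (SD, n = 2), and the ranges of SLC35F5 and SLC35F6 overlapped. In control SLC35F2 averaged 9.18 ± 2.65 RPKM, SLC35F6 3.68 ± 0.523 RPKM and SLC35F5 2.89 ± 0.256 RPKM (SD, n = 2). The order of SLC35F5 and SLC35F6 in control depends on the length used: with the transcript that holds the longest coding sequence SLC35F5 stood above SLC35F6 in both controls.

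SLC35F2 made up 22.9% and 21.4% of the family's summed RPKM in KO 1 and KO 2, against 54.5% in control 1 and 42.8% in control 2. The mean level of SLC35F2 differed by -6.25 RPKM, KO minus control. The other 5 genes together had 10.9 and 9.56 RPKM in KO and 9.24 and 9.74 RPKM in control, so that KO 2 lay between the controls. Their mean sum was 10.2 ± 0.967 RPKM in KO and 9.49 ± 0.350 RPKM in control (SD, n = 2 each), a difference of 0.757 RPKM. That difference changed sign with library size only (-0.102 RPKM), was 1.503 RPKM with the other gene length, 0.0733 RPKM without KO 1 and 1.44 RPKM without KO 2. The summed level of all 6 genes was 13.2 ± 1.43 RPKM in KO and 18.7 ± 2.30 RPKM in control (SD, n = 2 each). In bulk RNA, a change in the share of cells that express a gene and a change in RNA per cell cannot be told apart.

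**Figure D2:**
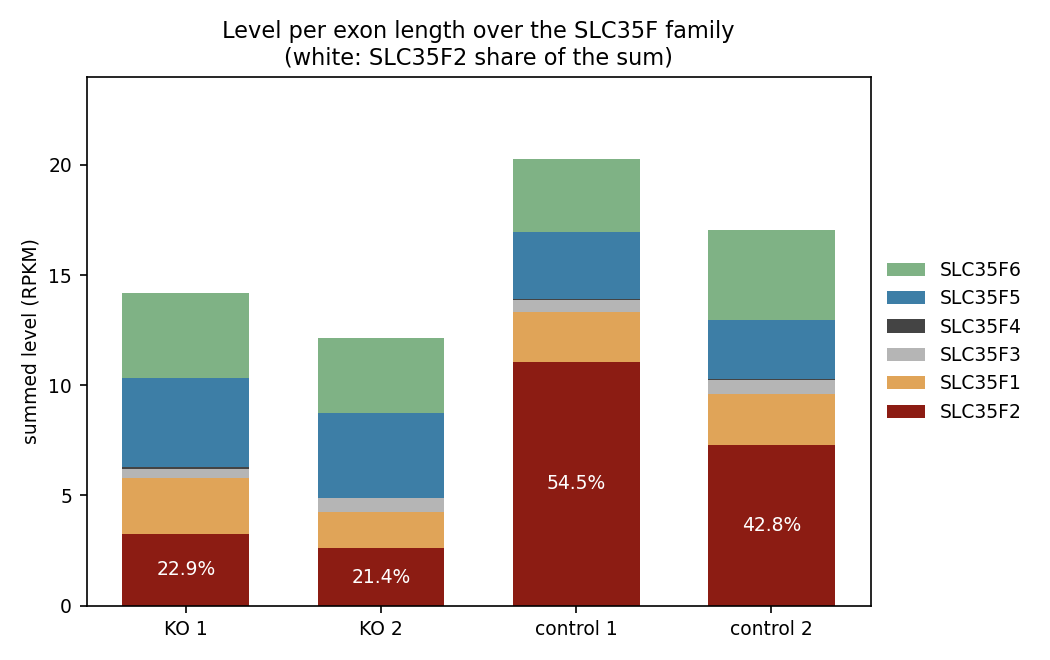
Summed level in RPKM (vertical axis from 0) of the 6 SLC35F genes in each library, stacked by gene. The white figures give the share of SLC35F2, which was 22.9% and 21.4% in KO against 54.5% and 42.8% in control, while the stack above SLC35F2 ran from 9.24 to 10.9 RPKM.

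The other SLC35 carriers gave no call either. Of 26 genes, 22 had enough reads to be tested and 2 were at 0 reads in all libraries. None was called in edgeR's quasi-likelihood test, where 0.0263% of all genes tested were. SLC35D3 was the 1 gene of the 22 under an unadjusted p of 0.05, beside 4.06% of all genes tested. Both KO libraries were above both controls for 4 of the 22 and below them for 4, shares near the 15.8% and 16.3% of all genes. The median log2 fold change was 0.13, beside 0.029 over all genes. SLC35D3, known in mouse for its part in platelet dense granules, had 10 and 1 reads in KO against 52 and 44 reads in control. This was a log2 fold change of -2.84 ± 0.84 (SE, n = 2 per group, edgeR adjusted p = 0.997, unadjusted p = 0.00814). It was -5.31 without KO 1, which leaves KO 2 with its 1 read as the only KO library, and -1.84 without KO 2.

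SLC35B2 and SLC35A4, the most abundant of these carriers per length, and SLC35E3 and SLC35E2B had intervals that included no difference. SLC35B2, which carries the sulfate donor PAPS into the Golgi, had 24.3 and 28.9 RPKM in KO and 20.9 and 17.6 RPKM in control (log2 fold change 0.47, 95% interval -0.16 to 1.09). SLC35A4 had 107 and 81.1 CPM in KO and 95.4 and 59.0 CPM in control (log2 fold change 0.29, interval -0.44 to 1.01), and its sign turned without control 2. SLC35E3 had 12.4 and 13.9 CPM in KO and 23.0 and 16.2 CPM in control, with no overlap (log2 fold change -0.58, interval -1.38 to 0.22). SLC35E2B had 100.7 and 73.5 CPM in KO and 68.6 and 63.7 CPM in control, also with no overlap (0.40, interval -0.24 to 1.03). SLC35E2B and SLC35E2A are near-identical copies, so the split of reads between them is uncertain.

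**Figure D3:**
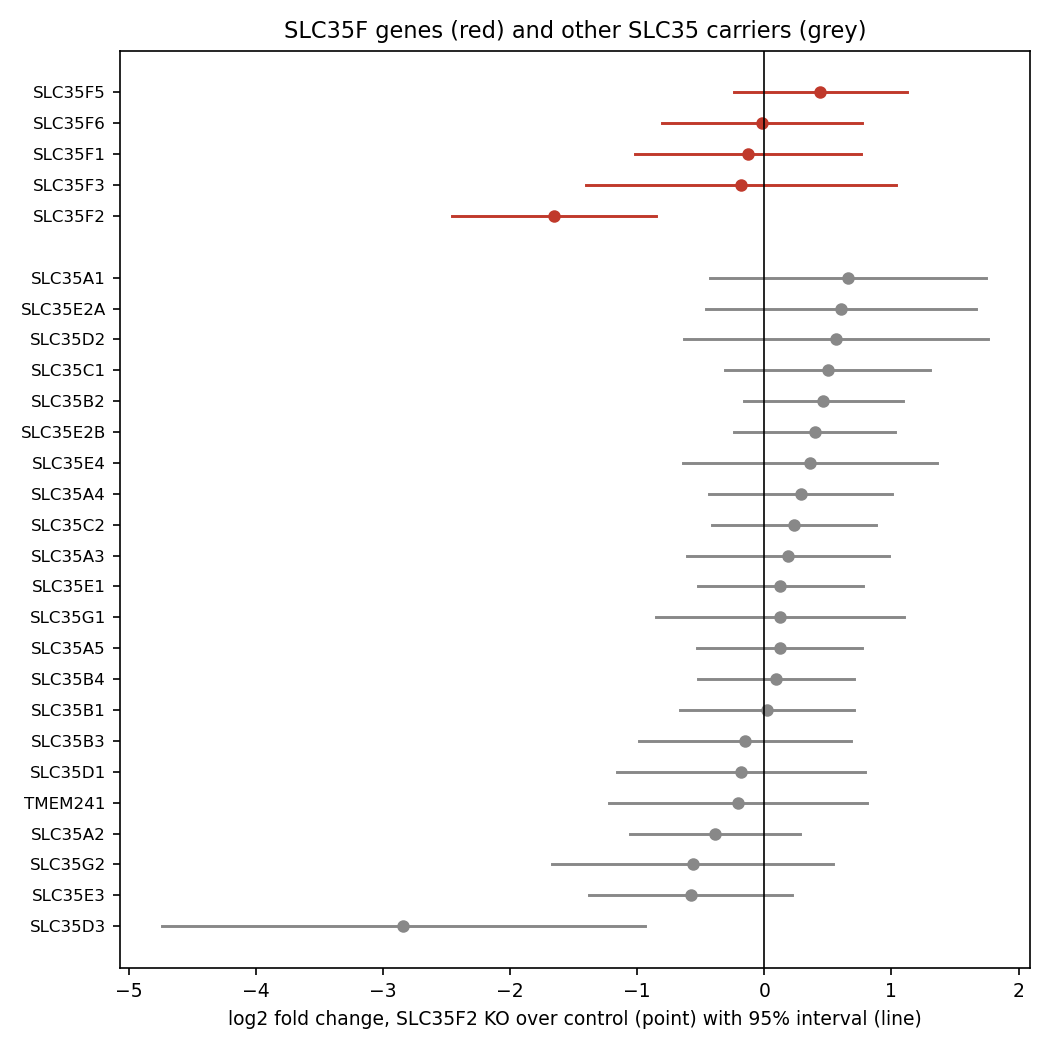
Log2 fold change of SLC35F2 KO over control (horizontal axis, points) with its 95% interval (lines) for the 5 tested SLC35F genes (red) and the 22 other tested SLC35 carriers (grey), from edgeR's quasi-likelihood fit with 2 libraries per group. The intervals of SLC35F2 and SLC35D3 lie below 0, and all others include it.

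Genes that handle the substrates described for the family were looked at in the same fit. Queuosine is made from salvaged queuine by the enzyme of QTRT1 and QTRT2, and the enzyme of C9orf64 (now also named QNG1) releases queuine from queuosine. C9orf64 had 3 and 1 reads in KO, against 92 and 88 reads in control, and both KO libraries were far below both controls. Its log2 fold change was -5.16 ± 0.86 (SE, n = 2 per group), with a 95% interval from -7.06 to -3.26. It was not called in edgeR's quasi-likelihood test (adjusted p = 0.162, unadjusted p = 0.000111). DESeq2 called it (adjusted p = 0.00026), and limma-voom did not (adjusted p = 0.296). The log2 fold change of C9orf64 was -6.22 without KO 1 and -4.45 without KO 2, each from a fit with a single KO library. QTRT1 had 61.3 and 30.5 CPM in KO and 48.9 and 34.9 CPM in control, and QTRT2 had 75.1 and 44.7 CPM in KO and 69.5 and 63.1 CPM in control, with overlap in both. The signs of their log2 fold changes (0.13 and -0.15) turned when single libraries were left out.

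Of 6 genes of thiamine transport and activation all were tested and none was called, where 0.0263% of all genes tested were. Their median log2 fold change was 0.34, beside 0.029 over all genes. SLC19A2, the main thiamine carrier here by level, had 42.4 and 32.5 CPM in KO and 36.5 and 32.7 CPM in control. SLC19A3, the other thiamine carrier of the cell membrane, had 3.53 and 4.91 CPM in KO and 5.51 and 7.32 CPM in control (log2 fold change -0.59, 95% interval -1.63 to 0.45). THTPA, which encodes thiamine triphosphatase, had 12.9 and 18.9 CPM in KO and 9.94 and 8.22 CPM in control (log2 fold change 0.81, interval -0.05 to 1.67). Its groups did not overlap, and 15.8% of all genes tested likewise had both KO libraries above both controls. Of 7 nucleoside carriers 4 were tested and none was called, beside the same 0.0263% of all genes. Their median was 0.36, beside the same 0.029. SLC29A1, the equilibrative nucleoside transporter ENT1, was the most abundant of them, with 303 and 252 CPM in KO and 247 and 201 CPM in control (log2 fold change 0.31, interval -0.29 to 0.91).

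The genes next to SLC35F2 on chromosome 11 were not called in edgeR's test, where 0.0263% of all genes tested were. RAB39A, which encodes a small GTPase of membrane traffic, starts 210 bases from the outermost annotated start of SLC35F2 on the opposite strand. It had 11.3 and 6.96 CPM in KO and 12.6 and 6.61 CPM in control, with both KO libraries between the controls (log2 fold change -0.08). CUL5, a scaffold of ubiquitin ligases, had 48.7 and 50.6 CPM in KO and 48.2 and 34.1 CPM in control (log2 fold change 0.27, 95% interval -0.40 to 0.94). ACAT1, an enzyme of ketone metabolism, had 35.7 and 73.7 CPM in KO and 49.0 and 47.8 CPM in control, and ALKBH8, a transfer RNA methyltransferase, had 24.5 and 12.1 CPM in KO and 22.3 and 13.5 CPM in control. SLN, which encodes sarcolipin, had 1 read over all 4 libraries. ELMOD1 had 84 and 3 reads in KO and 167 and 114 reads in control. Its log2 fold change of -1.36 was -5.38 without KO 1, which leaves the 3 reads of KO 2, and -0.32 without KO 2. Within the bounds of SLC35F2 the pseudogene ENSG00000240652 on the opposite strand, which shares 114 exonic bases with it, had at most 1 read in any library.

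The pattern of SLC35F2 over the 4 libraries was shared closely by few genes. Likeness was the root mean square distance between log2(CPM + 0.01) deviations from each gene's own mean over 4 libraries, taken over the 12461 other protein-coding genes that averaged 2 CPM or more. The 5 nearest were NR5A2 (distance 0.155), a nuclear receptor, ELOVL2 (0.164), a fatty acid elongase, SMARCA2 (0.173), an ATPase of chromatin remodelling, CHST9 (0.189), a sulfotransferase, and KIAA0825 (0.191). These were the genes within a distance of 0.2, and 13 lay within 0.3. CHST9 was the most abundant of them, with 14.1 and 7.78 CPM in KO and 40.7 and 25.7 CPM in control. The distances of SLC35F1, SLC35F6 and SLC35F5 from SLC35F2 were 0.776, 0.869 and 1.05. With 4 libraries such a distance describes these samples and carries no test.

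**Figure D4:**
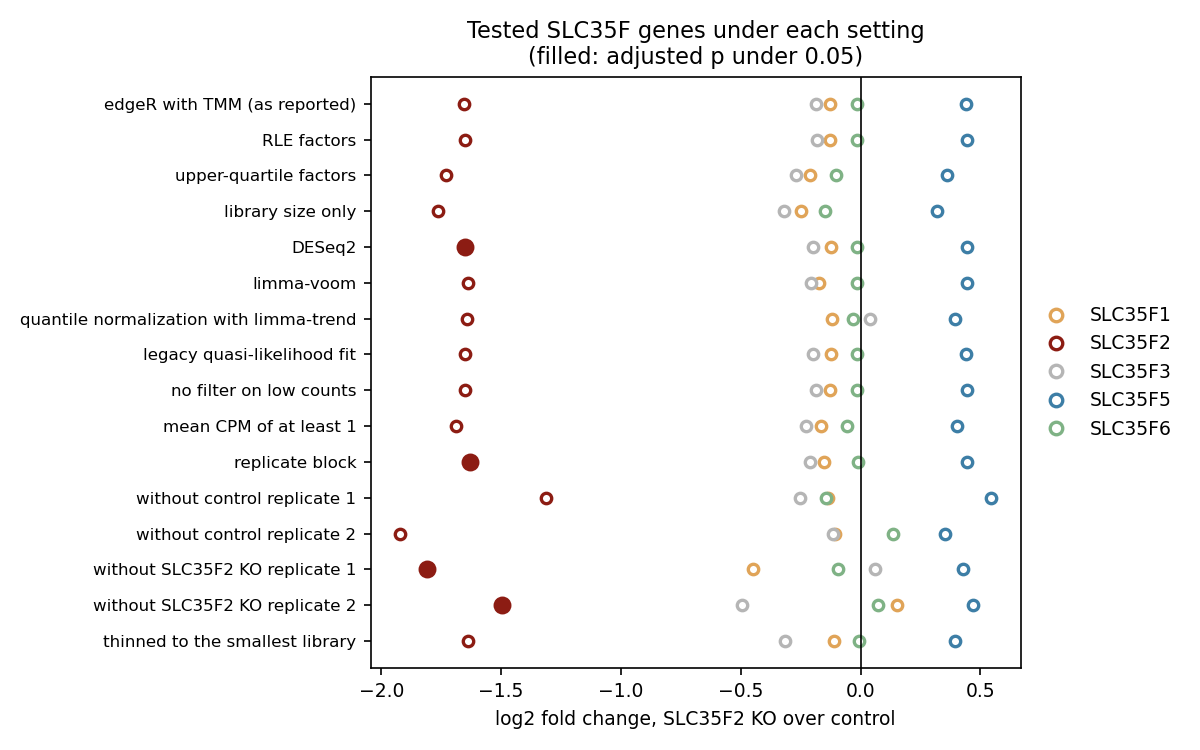
Log2 fold change of SLC35F2 KO over control (horizontal axis) for the 5 tested SLC35F genes under the reported fit (top) and 15 other settings, 1 per line; filled points passed an adjusted p of 0.05. SLC35F2 lay between -1.92 and -1.31 and passed in 4 of them, and SLC35F5 lay between 0.32 and 0.54. SLC35F1 lay between -0.45 and 0.15, SLC35F3 between -0.50 and 0.06, and SLC35F6 between -0.15 and 0.14.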

How the data were processed

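Polyadenylated RNA of 4 H9 libraries (2 SLC35F2 KO, 2 control, grouped by title) was prepared with a stranded mRNA kit, per the labels' protocols. STAR 2.6.0a, HTSeq 0.11.0, FastQC 0.11.7, cutadapt 1.8.1 and the build GRCh38 (hg38) are named in the submitters' processing notes. Neither the annotation release nor the strand setting is stated there (not given in the sources used here). The deposited values are raw read counts per gene. Reads given to no single gene were 16.7% and 14.4% of counted alignments in KO 1 and KO 2 and 17.8% and 20.3% in control 1 and 2, and were left out.

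Identifiers were matched without version to GENCODE 29 (93.8% matched). Genes were filtered with filterByExpr (minimum count 10), scaled with TMM, and tested in R 4.3.3 by a robust quasi-likelihood fit (edgeR 4.0.16), two-sided, Benjamini-Hochberg threshold 0.05. SE is the log2 fold change over the square root of F. Intervals have a confidence level of 0.95. The script was tested on simulated data.

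The members and gene lists were chosen with earlier results of these data known. Named were all members, genes overlapping them, the SLC35 carriers with the 4 smallest p or the 2 highest levels, genes of the queuosine and thiamine lists, the 3 nearest protein-coding genes on each side of SLC35F2, and the 5 genes most like it. SLC29A1 and the marker genes were named after their values were seen, and the level of 1 neural marker is not reported here. Alternatives were other scaling factors, DESeq2 1.42.0, limma 3.58.1 (voom, or quantile normalisation, which the labels mention but the counts do not carry), the legacy fit, other filters, a replicate block, each library left out, thinning and a threshold of 0.01. The family sums' alternatives were added after the data were seen.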

Additional observations from a re-analysis of the deposited data

How the results depend on the processing

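The number of genes called was 5 as reported. It was 0 with upper-quartile factors, library size only, limma-voom, a mean CPM of at least 1 and a threshold of 0.01, where 801, 787, 692, 523 and 773 genes had an unadjusted p under 0.05. It was 1 with quantile normalisation and with the legacy fit, 8 with no filter, 60 with DESeq2 and 76 with the replicate block. Leaving out 1 library gave 3 to 1096.

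SLC35F2 and SLC35F5 kept their directions in all 15 refits. With the threshold of 0.01 as a further alternative, the count of SLC35F members called was 0 in 12 alternatives and 1 (SLC35F2) in 4. The 4 were DESeq2 (log2 fold change -1.65), the replicate block (-1.63, edgeR adjusted p = 0.00736), and leaving out either KO library. Leaving out 1 library gave -1.92 to -1.31 and 0 to 1 members called. The block also called C9orf64 (-5.16, edgeR adjusted p = 0.00143). Over genes, the difference between replicates 1 and 2 had a correlation of 0.326 between KO and control, so same-numbered libraries deviated together. The labels tie the numbers to no shared day or culture, and with 2 pairs the data alone do not settle whether the numbers pair the libraries.

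Signs turned for SLC35F1 without KO 2 (0.15), for SLC35F3 with quantile normalisation (0.038) and without KO 1 (0.059), and for SLC35F6 without control 2 (0.14) and without KO 2 (0.073). Leaving out 1 library gave -0.45 to 0.15 for SLC35F1, -0.50 to 0.06 for SLC35F3 and -0.15 to 0.14 for SLC35F6. They turned for QTRT1 with quantile normalisation (-0.031), without control 2 (-0.093) and without KO 1 (-0.45), and for QTRT2 without KO 2 (0.18). RAB39A turned with quantile normalisation (0.043), without control 1 (0.47) and without KO 2 (0.23), SLC19A2 with library size only (-0.0019) and without KO 1 (-0.076), and SLC35A4 without control 2 (-0.020). With 1 library left out these ran from -0.45 to 0.55 for QTRT1, -0.56 to 0.18 for QTRT2, -0.47 to 0.47 for RAB39A, -0.08 to 0.30 for SLC19A2 and -0.02 to 0.68 for SLC35A4. Library size only moved the median of all genes to -0.097. The summed RPKM of the other 5 genes differed by 1.503 with the length of the longest coding transcript and by -0.102 with library size only, and by 0.0733 to 1.44 with 1 library left out. The share of SLC35F2 in the family differed by -32.3 to -20.7 percentage points with 1 library left out. The cause of these moves was not tested.

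Depth limits SLC35F4, whose counts had errors of 30.2% or more, and SLC35F3, with 11.7% to 16.2%. For the other members counting error was at most 6.02% of the level. The intervals of fold changes rest on a spread moderated over all genes and can be wider than a gene's own libraries.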

Other observations

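The promoter letters of SLC35F4, which was nearly silent, can be set beside those of SLC35F5. Its first RefSeq entry of 300 bases held 38 CpG dinucleotides and 2 GC boxes at 73.7% GC, and no cAMP response element. SLC35F5 held 38 CpG dinucleotides, 2 GC boxes and 1 cAMP response element at 71.3% GC. The second SLC35F4 entry, which overlaps the first, held 21 CpG dinucleotides and 1 GC box at 63.7% GC, and no cAMP response element.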
